A study of Mus musculus with 6 samples.

Results

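The 3 unirradiated control cultures of a study on pulsed terahertz radiation are described here by the level of each gene and by how far the levels differed from one control culture to the next. They were the 3 of 6 arrays labelled as controls, 1 from each of 3 independent experiments. The cells were commercial mouse mesenchymal stem cells, grown in α-MEM with 5% FBS and antibiotics. All 6 cultures had received the PPARγ agonist rosiglitazone (1 µM), insulin (5 µg/ml), the phosphodiesterase inhibitor IBMX (100 µM) and the glucocorticoid dexamethasone (1 µM) again 48 h before the start, so no culture without these agents was analysed here. In each experiment the control stood next to a culture irradiated for 12 h, with both at 26 to 27 °C, and RNA was taken at once afterwards. Each control was therefore kept for those hours below the temperature of the body. The irradiated arrays are used below only as the second culture of the same experiment, and they were not compared with the controls.

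Mesenchymal stem cells are stromal cells that can become fat, bone or cartilage cells. The agents in the medium act through a known cascade: glucocorticoid and cAMP signals raise C/EBPβ and C/EBPδ, these raise PPARγ and C/EBPα, and those switch on the genes of lipid uptake and storage, with insulin and rosiglitazone as direct drivers. Stromal cultures on plastic often also hold macrophages, blood cells that adhere to plastic and live on the CSF1 that stromal cells secrete.

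Values are deposited log2 signals per probe set, so a difference of 1 is a doubling. A gene was read from its probe set of highest mean over the controls, which gave 18193 genes. The median signal was 4.75, 4.77 and 4.80 on control arrays 1, 2 and 3, and the arrays correlated at 0.9912 to 0.9955 over 45037 probe sets, with no pair identical. The 73 measured smell and taste receptor genes, which such cells should not use, had a median of 3.11, a 95th percentile of 4.59 and a highest mean of 5.92. A gene was called expressed at a control mean of at least 6, which 9176 genes (50.4%) reached and none of those receptors did. The order of signals of different genes also depends on how well each probe binds, so it is not an order of transcript number. In bulk RNA, fewer cells of a type and less RNA per cell cannot be told apart.

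The brightest genes mixed members of the fat cell and macrophage lists with the protein synthesis machinery. Bulk RNA does not show which cell type a transcript came from. Of the 25 genes of highest mean, 10 encode ribosomal proteins, and 23 were among the top 25 on each of the 3 arrays. Lyz1, a lysozyme, read 14.45, 14.51 and 14.53 in control cultures 1, 2 and 3. Fabp4, a fatty acid carrier on the fat cell lists, read 14.22, 14.39 and 14.34. Lyz2, the lysozyme of macrophages, read 14.14, 14.22 and 14.26. These 3 genes differed by at most 0.17 between cultures. They sat at the top of the signal range, where array signals in general can be compressed. Lyz1 and Lyz2 are near-identical copies whose probe sets can bind the same transcripts, so the split between them is uncertain: 1 of the 3 Lyz1 probe sets had a mean of only 4.98. The iron store Fth1 (14.38 ± 0.03, SD, n = 3), the lectin Lgals3 (14.12 ± 0.07), the selenium carrier Selenop (13.96 ± 0.12), the lipid carrier Fabp5 (13.85 ± 0.11), the lysosomal protease Ctsb (13.84 ± 0.10) and the metal-binding Mt1 (13.84 ± 0.16) followed among the top 25. So did the housekeeping genes Tpt1, Eef1a1, Actb, Tmsb4x and Cox6a1, at 13.82 to 14.17.

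**Figure D1:**
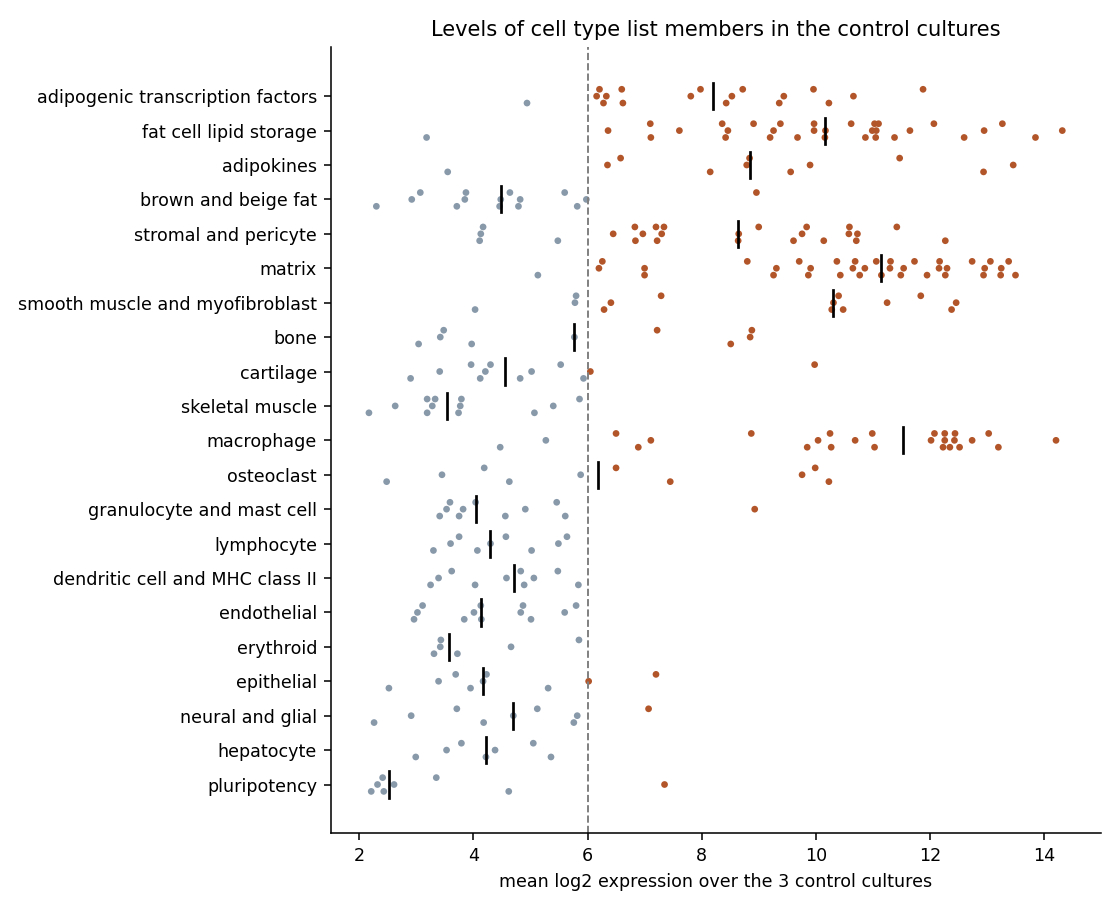
Mean log2 expression over the 3 control cultures for each measured member of 21 cell type lists. Each point is a gene, the short black bar is the list median and the dashed line marks the level of 6. Fat cell, stromal, matrix, contractile and macrophage lists lie mostly to the right of the line, while the 6 lists for lymphocytes, dendritic cells, endothelium, erythroid cells, hepatocytes and skeletal muscle have no point beyond it.

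The fat cell program was on in all 3 control cultures. Of the 61 measured members of the fat cell lists, 58 were expressed, against 50.4% of all genes, and 23 had a mean of at least 10. Among the transcription factors, 17 of 18 were expressed. Cebpb, the early factor of the cascade, read 11.71, 11.93 and 12.00 in control cultures 1, 2 and 3. Cebpa, which keeps the mature state, read 10.34, 10.57 and 11.07, and Pparg, the master regulator and the target of rosiglitazone, read 9.37, 9.42 and 9.52. Pparg was thus nearly level across the cultures, whereas Cebpa was lowest in culture 1 and highest in culture 3, a range of 0.73. Cebpd (10.23 ± 0.06, SD, n = 3), the lipid synthesis regulator Srebf1 (9.96 ± 0.23) and Lpin1 (9.36 ± 0.06), a phosphatase that also serves as a coactivator, were well above the line. Zfp467 was the member below it, at 4.94.

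Lipid uptake and storage genes were expressed at 31 of 32 members, with a list median of 10.16. The lipase Lpl, which frees fatty acids from circulating fat, read 13.20, 13.31 and 13.31. Scd1, which desaturates fatty acids, read 12.49, 13.12 and 13.25. Gpd1, which makes the glycerol backbone of stored fat, read 8.45, 9.53 and 9.62. Scd1 and Gpd1 were low in culture 1 only, and Gpd1 was the only member of the list with a range of at least 1. Its irradiated neighbours read 8.59, 8.68 and 8.95, so experiment 1 did not stand as far below the others on those arrays. The lipid droplet coat gene Plin2 read 12.72, 12.87 and 12.22, lowest in culture 3. The fatty acid transporter Cd36 was at 12.07 ± 0.16 (SD, n = 3), the lipase Pnpla2 at 11.65 ± 0.29 and the hormone-sensitive lipase Lipe at 9.97 ± 0.41. Pck1, which feeds glycerol synthesis in fat tissue and glucose synthesis in liver, was below the line at 3.18.

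The list of fat cell hormones was expressed at 10 of 11 measured members. Adiponectin (Adipoq) read 13.35, 13.60 and 13.44, a range of 0.25. Grn, the progranulin gene, was at 12.94 ± 0.09 (SD, n = 3), Angptl4, a secreted inhibitor of Lpl, at 11.47 ± 0.08 and angiotensinogen (Agt) at 9.90 ± 0.12. Leptin (Lep), the hormone of lipid-filled fat tissue, was below the line at 3.38, 3.84 and 3.43. Of the lists of brown and beige fat, the heat-producing kinds, 1 of 15 members was expressed: Dio2, which activates thyroid hormone, at 9.32, 8.98 and 8.58. Ucp1, the uncoupling protein of brown fat, read 5.48, 5.76 and 6.69, so it passed the line in culture 3 alone. The irradiated cultures read 4.68, 5.47 and 5.17 for Ucp1. Prdm16, Ppargc1a, Cidea, Cox8b and Zic1 lay between 2.30 and 4.82.

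**Figure D2:**
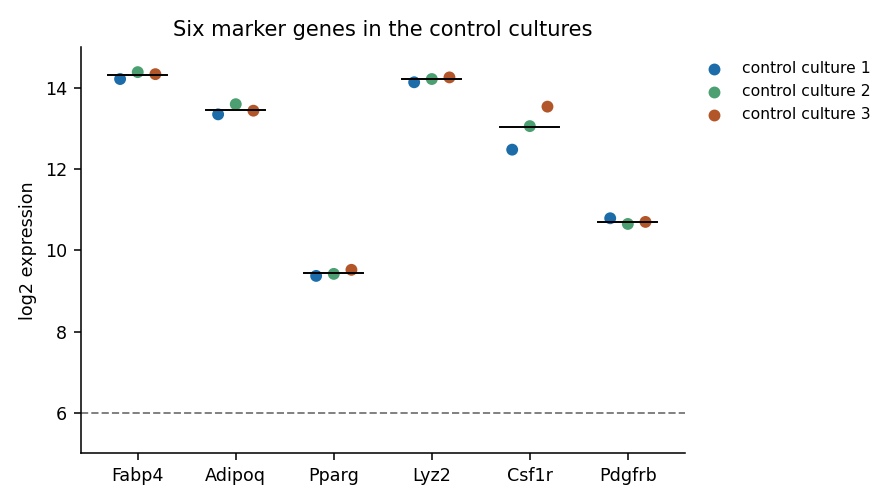
Log2 expression of 6 marker genes in each control culture, with the mean as a black line and the level of 6 dashed. Fabp4, Adipoq, Pparg, Lyz2 and Pdgfrb differ by at most 0.25 between cultures, while Csf1r spans 1.06.

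Most genes on the lists of glucocorticoid targets, cAMP and insulin signalling were expressed. Of 44 measured nuclear receptors 22 were, a share near the 50.4% of all genes, with Vdr, the vitamin D receptor, at 10.16 ± 0.15 (SD, n = 3) and the clock repressor Nr1d2 at 10.14 ± 0.11. Nr3c1, the receptor for dexamethasone, read 8.60, 8.75 and 8.81, and Insr, the insulin receptor, read 7.57, 7.69 and 7.99. Both were named here because the medium holds their ligands, not by the rule for named genes. Of 16 genes known as glucocorticoid targets, 15 were expressed, at a list median of 11.27. Fkbp5, a chaperone of the receptor, had a mean of 10.36 and a range of 1.07, and Tsc22d3, an anti-inflammatory mediator, read 9.76, 10.42 and 10.78. Both were lowest in culture 1 and highest in culture 3, as was the acute phase gene Saa3 at 12.36, 13.25 and 13.57. The kinase gene Sgk1 was at 12.77 ± 0.15 and the transcription factor gene Klf9 at 12.13 ± 0.15. Of 19 cAMP and phosphodiesterase genes 17 were expressed, led by the kinase subunit Prkar1a (11.40 ± 0.12) and Pde3b (11.29 ± 0.12), the phosphodiesterase through which insulin restrains lipolysis. The insulin signalling list was expressed at 15 of 16 members with a median range of 0.24, led by the glucose transporter Slc2a1 (11.52 ± 0.27) and the adaptor Irs1 (10.97 ± 0.08).

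Stromal identity was marked clearly, but not by every gene used for these cells. Of 25 measured stromal and pericyte markers 21 were expressed. The niche chemokine Cxcl12 read 12.31, 12.22 and 12.29, and the PDGF receptor Pdgfrb read 10.79, 10.65 and 10.70. Both were even across cultures. The homeobox gene Prrx1 (11.42 ± 0.23, SD, n = 3), Alcam (10.73 ± 0.14), Itgb1 (10.59 ± 0.16) and Cd44 (10.58 ± 0.18), the last 3 surface adhesion proteins, were also bright. Thy1 (4.11), Dpp4 (4.13), Dlk1 (4.17) and Cspg4 (5.48) were below the line. Thy1 is a usual surface marker of these cells, and Dlk1 is an inhibitor of fat cell formation that committed preadipocytes carry. Icam1, an adhesion protein, read 6.68, 6.96 and 8.39, high in culture 3 only, while its irradiated neighbours read 6.51, 7.51 and 6.92. Nt5e, the enzyme CD73, read 7.94, 7.15 and 6.81, and Cd34 read 7.41, 6.75 and 6.32, both highest in culture 1.

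The matrix list was expressed at 36 of 37 members, and 26 of these had a mean of at least 10. The collagenase Mmp13 read 13.52, 13.48 and 13.51. The collagen chain Col1a2 read 13.51, 13.31 and 13.31, and the protease inhibitors Timp2 and Timp1 were at 13.25 ± 0.12 (SD, n = 3) and 13.24 ± 0.15. Those levels were stable, whereas Thbs1, a matrix protein that activates TGF-β, read 11.76, 11.02 and 10.39 and the inhibitor Timp3 read 11.40, 10.75 and 10.17. Elastin (Eln) was below the line at 5.13. Contractile genes were expressed at 11 of 14 members. Acta2, smooth muscle actin, read 12.65, 12.36 and 12.36, and Cald1 and Tpm2, regulators of actin filaments, were at 12.38 ± 0.15 and 11.84 ± 0.23. Myh11, the myosin of mature smooth muscle, was below the line at 4.03. Ccn2, a matricellular target of TGF-β, read 12.14, 11.29 and 10.31 in the controls and 12.78, 11.64 and 12.50 in the irradiated cultures.

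The other stromal fates were marked weakly. Of 9 measured bone genes 4 were expressed, not far from the 50.4% of all genes. They were Ibsp (8.21, 8.88 and 9.56), a mineral-binding matrix protein, Omd (8.85 ± 0.08, SD, n = 3), Alpl (8.51 ± 0.07), the alkaline phosphatase of bone cells, and Dlx5 (7.22 ± 0.41). Sp7, the osteoblast factor, was at 5.77. Of 12 cartilage genes only Col11a1 (9.98 ± 0.29) and Sox9 (6.05 ± 0.20) were expressed, and Acan and Col2a1, the defining matrix genes of cartilage, were both below the line, Col2a1 at 5.53. None of the 12 skeletal muscle genes was expressed. Myod1, the defining factor of muscle, was at 3.79.

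Macrophage genes had a list median of 11.53, the highest of the 21 cell type lists plotted. Of 26 measured members 24 were expressed and 13 had a mean of at least 12. Csf1r, the receptor that macrophages need to survive, read 12.48, 13.06 and 13.54 in control cultures 1, 2 and 3. Its other probe sets read 10.93, 11.52 and 12.43, and 9.56, 10.00 and 10.98, so all 3 were lowest in culture 1 and highest in culture 3. Mrc1, the mannose receptor, read 11.61, 12.50 and 13.17. The protease Ctss (13.20 ± 0.27, SD, n = 3), the signalling adaptor Tyrobp (12.74 ± 0.27), Cd68 (12.52 ± 0.21) and the pore-forming Mpeg1 (12.44 ± 0.26) were also bright. The complement gene C1qb read 11.29, 12.21 and 12.73 and its partner C1qc read 10.27, 11.05 and 11.78. Fcgr1 (5.27) and Cx3cr1 (4.47) were below the line. The RNA of cultures labelled as mesenchymal stem cells thus carried defining markers of fat cells, stromal cells and macrophages.

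Markers of most other cells were below the line or expressed singly. In the 6 lists for endothelium, lymphocytes, dendritic cells with MHC class II, erythroid cells, hepatocytes and skeletal muscle, 0 of 56 measured members were expressed, and the highest mean was 5.86. The count rests on the level chosen: 15 of the 56 reached a level of 5, and 20 reached 4.59, the 95th percentile of the receptor genes. Pecam1 and Cdh5, which define endothelium, were at 4.13 and 3.84, Cd3e of T cells at 5.49 and H2-Aa of MHC class II at 3.62. Of the osteoclast list 5 of 10 were expressed, a share near the 50.4% of all genes. Among them the protease Ctsk was at 10.23 ± 0.11 (SD, n = 3), the proton pump subunit Atp6v0d2 at 9.31, 10.10 and 10.56, and Mmp9 at 9.76 ± 0.10. The defining osteoclast genes Calcr (2.48), Ocstamp (3.45) and Dcstamp (4.63) were below the line. S100a8 was at 9.41, 8.80 and 8.58 while its partner in neutrophils, S100a9, was at 3.59. Epcam (7.20) and Cldn3 (6.02) of 9 epithelial genes, Mbp (6.54, 7.06 and 7.62) of 9 neural genes and Utf1 (7.35) of 8 pluripotency genes were the sole expressed members of their lists. Cdh1 was at 2.52, Snap25 at 2.26 and Pou5f1 at 3.35.

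The promoters of the genes that mark these programs are printed for comparison, as the 250 bases before the start of each gene in RefSeq on GRCm38.p6, read 5′ to 3′ on the gene's strand. Ccl8 and Cxcl13 are shown because the experiment test below turns on them, Mrc1 and Lyz2 as macrophage genes and Adipoq as a fat cell gene. Capitals mark GAGGAA or its complement TTCCTC, a core sequence that the macrophage factor PU.1, the product of Spi1, can bind.
Ccl8: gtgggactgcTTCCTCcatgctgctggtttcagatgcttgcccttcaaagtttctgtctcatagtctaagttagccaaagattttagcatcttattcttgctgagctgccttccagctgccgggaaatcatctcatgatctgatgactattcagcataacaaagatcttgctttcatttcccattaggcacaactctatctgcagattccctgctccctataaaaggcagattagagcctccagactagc
Cxcl13: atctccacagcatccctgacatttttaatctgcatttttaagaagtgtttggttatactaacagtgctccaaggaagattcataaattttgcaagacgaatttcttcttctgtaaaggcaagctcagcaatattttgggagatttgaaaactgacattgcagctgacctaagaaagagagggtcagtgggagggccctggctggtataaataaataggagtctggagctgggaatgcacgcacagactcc
Mrc1: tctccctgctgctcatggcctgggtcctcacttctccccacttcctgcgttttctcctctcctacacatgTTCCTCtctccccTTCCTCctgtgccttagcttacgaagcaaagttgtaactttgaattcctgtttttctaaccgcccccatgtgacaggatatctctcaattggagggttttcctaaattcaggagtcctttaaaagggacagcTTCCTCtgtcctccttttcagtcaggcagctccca
Lyz2: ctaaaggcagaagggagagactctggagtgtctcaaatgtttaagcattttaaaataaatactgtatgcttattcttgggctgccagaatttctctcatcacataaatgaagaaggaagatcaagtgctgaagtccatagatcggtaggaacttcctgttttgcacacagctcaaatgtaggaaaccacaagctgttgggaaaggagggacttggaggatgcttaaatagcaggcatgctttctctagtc
Adipoq: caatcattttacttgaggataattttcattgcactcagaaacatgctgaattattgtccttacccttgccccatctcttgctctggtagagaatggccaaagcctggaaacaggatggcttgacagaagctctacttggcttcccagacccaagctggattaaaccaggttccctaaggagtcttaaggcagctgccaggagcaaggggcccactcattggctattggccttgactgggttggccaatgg
The windows are chr11:82114935-82115184 on the plus strand, chr5:95956689-95956938 on the plus strand, chr2:14229164-14229413 on the plus strand, chr10:117282273-117282522 on the minus strand and chr16:23146286-23146535 on the plus strand. The Mrc1 window held 3 matches, the Ccl8 window 1 and the other 3 windows none. The search took both strands and a single motif, so no overlap with another motif arises. A match was found in 6986 of 27025 promoters (25.9%), in 25.4% of the 7524 promoters of expressed genes, in 12 of the 19 matched promoters of the macrophage list (63.2%) and in 16 of the 50 of the fat cell lists. These are shares of windows that hold the letters and say nothing of binding.

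Genes that record where in the body a stromal cell came from were partly on. Of 40 measured positional genes 14 were expressed, a smaller share than the 50.4% of all genes. Shox2, a limb homeobox gene, read 10.39, 10.04 and 10.33, and Tbx15, a T-box gene of limb and fat depots, read 9.33, 9.06 and 9.39. Hoxa9 read 9.50, 9.53 and 9.79, and Hoxa10 read 8.78, 8.76 and 8.87. None of these 4 differed by more than 0.35 between cultures. By cluster, 5 of 9 measured Hoxa, 0 of 9 Hoxb, 4 of 7 Hoxc and 2 of 8 Hoxd genes reached the level of 6, the highest Hoxb gene being Hoxb4 at 5.87. Tbx5 and Tbx4, which mark fore and hind limb, were both at 4.01, and En1 was at 2.26. Positional genes had a median range of 0.26, that of all expressed genes.

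Many secreted signals were expressed. Of 31 chemokines and cytokines 20 were expressed, against 50.4% of all genes. Of those 20, 6 had a range of at least 1, against 2.56% of all expressed genes. So did 8 of 25 expressed growth factor genes, 6 of 24 macrophage genes and 3 of 15 glucocorticoid targets. Ccl6 read 11.85, 12.57 and 12.70, and Ccl9 read 11.33, 12.12 and 12.33. Both attract myeloid cells, and both were lowest in culture 1. Csf1, the growth factor that binds Csf1r, read 11.22, 10.42 and 10.04, the other way round. Il1b (4.96), Tnf (5.70), Il10 (2.63) and Cxcl10 (4.39) were below the line. Of 27 growth factor genes 25 were expressed, led by Fgf7 (11.32 ± 0.32, SD, n = 3), a factor for epithelium, Kitl (11.05 ± 0.19), the ligand of Kit, and the activin antagonist Fst (10.62 ± 0.32). Hbegf, a ligand of the EGF receptor, read 8.57, 7.72 and 6.96, Bmp4 read 9.01, 8.29 and 7.43, and Gdnf read 8.09, 7.01 and 6.57. These 3 were highest in culture 1 and lowest in culture 3, while Pdgfc (9.99, 10.33 and 11.19) was the reverse.

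Genes of growth, breakdown and stress were mostly expressed. The lysosome list was expressed at 16 of 16 members with a median of 12.43, led by the proteases Ctsb and Ctsd (13.48 ± 0.09, SD, n = 3). Of 37 replication and mitosis genes 32 were expressed at a list median of 7.54, led by Pcna, the replication clamp (11.72 ± 0.16), and Rrm2, which makes DNA precursors (11.11, 10.54 and 10.30). Cell cycle inhibitors were expressed at 13 of 14 members. Cdkn1a, the p53 target p21, read 12.29, 12.15 and 12.20, and Cdkn2a, the p16 and p19 gene, read 11.95, 11.40 and 11.21. Of the genes induced by interferon 11 of 26 were expressed, not far from the 50.4% of all genes, and 20 were above 4.59. The brightest were B2m (13.28 ± 0.10), H2-D1 (13.13 ± 0.06) and H2-K1 (12.95 ± 0.09), which cells carry without interferon, and Ifit1 was at 3.65 and Irf7 at 4.95.

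All 20 cholesterol synthesis genes were expressed at a median of 8.75, led by Insig1 (11.02 ± 0.13, SD, n = 3), and all 21 chaperones at 10.60, led by Hspa8 (13.26 ± 0.06). Fdft1, which makes squalene, was the widest of the cholesterol list at 9.28, 8.78 and 8.03. Of 22 immediate early genes, which respond within minutes to a stimulus, 20 were expressed, led by Ier3 (12.08 ± 0.15). Of 21 hypoxia and glycolysis genes 19 were, led by Pgk1 (12.89 ± 0.13), and Car9, a marker of low oxygen, was at 4.93. Respiratory chain genes (20 of 20 expressed) and housekeeping genes (11 of 11) had the smallest median range of the lists with at least 10 expressed members, 0.11 each. Oxidative stress genes were expressed at 17 of 18, led by Fth1, with Nqo1 at 5.92.

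Most expressed genes differed little between the control cultures. The median range over the 3 cultures, highest minus lowest, was 0.26, and the median SD was 0.14 (n = 3). Of 9176 expressed genes, 1602 (17.5%) had a range of at least 0.5, 235 a range of at least 1 (2.56%) and 15 a range of at least 2. The median range was larger in dim genes, 0.28 at means of 6 to 8 and 0.15 at means of 12 or more, and 3.0% and 2.1% of genes reached a range of at least 1. The widths were not spread evenly over the cultures. Of the 235 wide genes 130 were lowest in culture 1 and highest in culture 3, 91 were the reverse and 14 had another order. Of all 9176 expressed genes 1991 were lowest in culture 1 and highest in culture 3, 2785 were the reverse and 4400 had another order or a tie. Without culture 1 only 48 genes kept a range of at least 1, and without culture 3 only 29, against 225 without culture 2.

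**Figure D3:**
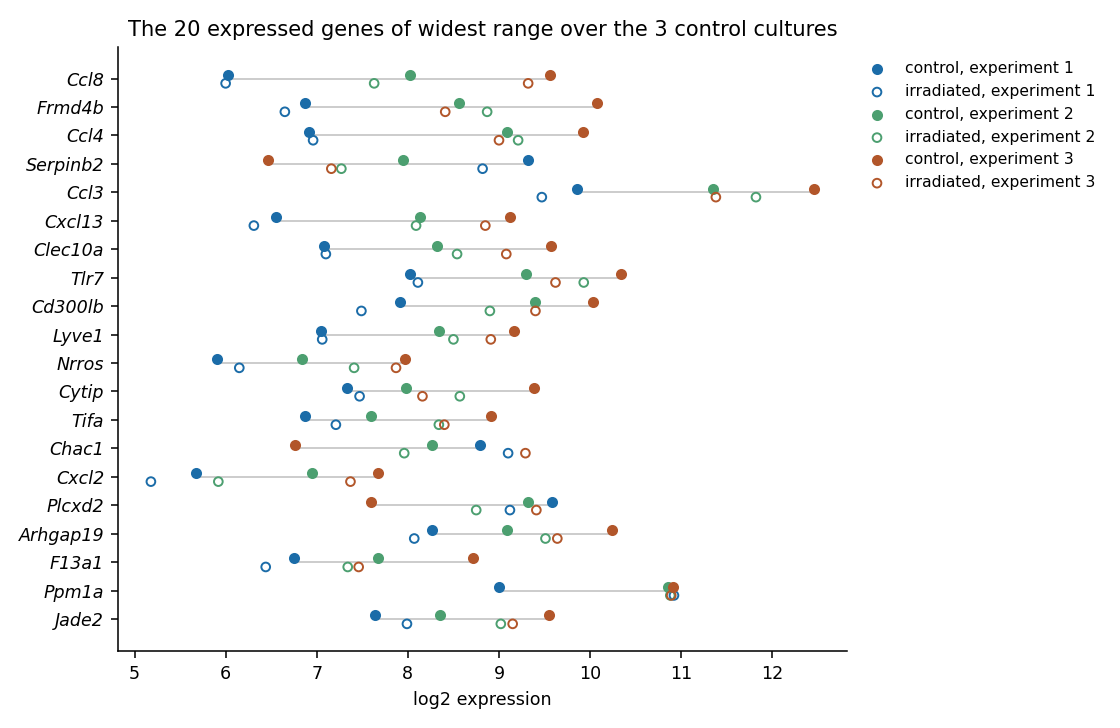
Log2 expression of the 20 expressed genes with the widest range over the control cultures. Filled points are the 3 controls, open points the irradiated culture of the same experiment, and colour marks the experiment. In 17 of the 20 genes control culture 3 is the highest, and in Serpinb2, Chac1 and Plcxd2 it is the lowest.

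The widest gene was a chemokine. Ccl8, a chemokine of tissue macrophages, read 6.03, 8.02 and 9.56 in control cultures 1, 2 and 3, an 11.6-fold range. In the irradiated cultures of the same experiments Ccl8 read 6.0, 7.63 and 9.32. Cxcl13, which attracts B cells, read 6.55, 8.13 and 9.12, and 6.31, 8.09 and 8.85 in the irradiated cultures. In both genes the 2 arrays of an experiment were close and the experiments did not overlap. Ccl4 (6.92, 9.09 and 9.92) and Ccl3 (9.86, 11.35 and 12.46), chemokines that share a receptor, and Clec10a (7.08, 8.32 and 9.57), a lectin of macrophages, had the same order. So did Tlr7, a sensor of RNA (8.02, 9.30 and 10.34), Cd300lb, a myeloid receptor (7.91, 9.39 and 10.03), Lyve1, a hyaluronan receptor of lymphatic vessels and some macrophages (7.05, 8.34 and 9.17), and Nrros (5.90, 6.84 and 7.97). Serpinb2, a protease inhibitor, had the reverse order at 9.32, 7.95 and 6.46. Chac1, an enzyme of the amino acid stress response, read 8.79, 8.27 and 6.76. Frmd4b (6.87, 8.56 and 10.08), Cytip, Tifa, Cxcl2, Arhgap19, F13a1, Ppm1a and Jade2 were also lowest in culture 1 and highest in culture 3, with ranges of 1.91 to 3.21. Of these, Ppm1a was low in culture 1 alone.

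**Figure D4:**
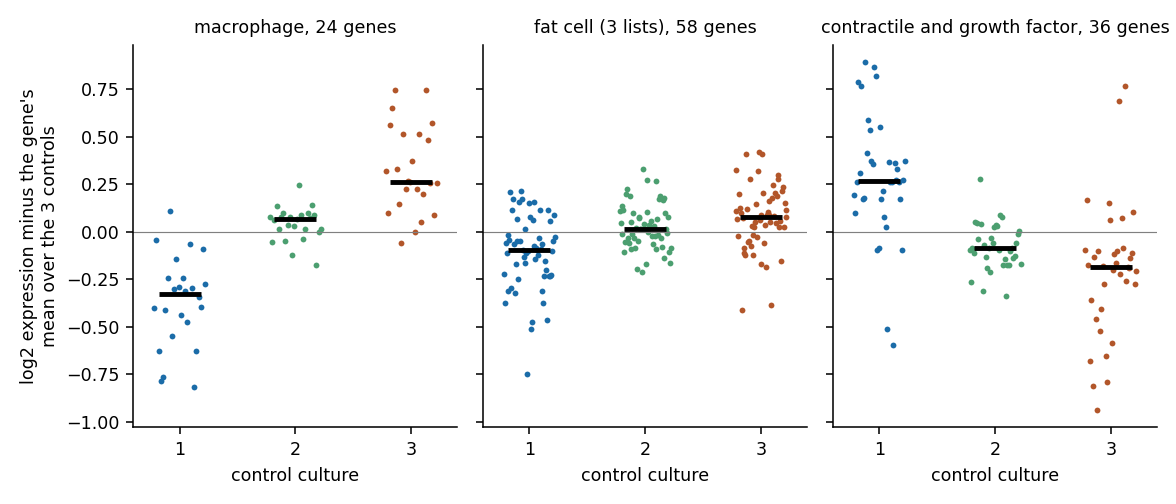
Log2 expression of each expressed list member minus its own mean over the 3 controls, by control culture, for 24 macrophage genes, the 58 genes of the fat cell lists, and contractile and growth factor genes together. Points are genes and black bars are medians. The macrophage points lie low in culture 1 and high in culture 3, the fat cell points stay closer to 0, and most points of the right-hand panel lie the other way round.

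By list, macrophage genes and stromal growth factor and contractile genes stood on opposite sides in the controls. Of 24 expressed macrophage genes 23 were higher in control culture 3 than in culture 1, with a median difference of 0.58, whereas 42.4% of all expressed genes were, with a median of -0.05. The mean over all 26 measured macrophage genes was 10.26, 10.66 and 10.92 in cultures 1, 2 and 3. In the irradiated arrays of experiments 3 and 1, 22 of the 24 were also higher in experiment 3, with a median of 0.78. Of 25 growth factor genes 5 were higher in control 3 than in control 1 (median -0.55), and of 11 contractile genes 1 (median -0.35). Of 21 stromal genes 5 were higher (median -0.22), and of 36 matrix genes 11 (median -0.18). In the irradiated arrays 6 growth factor and 2 contractile genes were higher in experiment 3 than in experiment 1 (medians -0.42 and -0.11). There 3 stromal and 6 matrix genes were higher (medians -0.28 and -0.3). Some lists of other kinds leaned in these directions too. Higher in control 3 than in control 1 were 3 of 19 hypoxia and glycolysis genes, 6 of 21 chaperones and 10 of 32 replication and mitosis genes. Of 16 lysosome genes 12 were higher. In the irradiated arrays 3, 2, 6 and 15 genes of these lists were higher in experiment 3 than in experiment 1. Of the 58 fat cell genes 41 were higher in control 3 than in control 1 (median 0.16), but in the irradiated arrays their median difference was -0.15. The 23 of 24 and the 1 of 11 held when the 3 arrays were quantile normalized or centred on their medians, which put the median of all genes at 0.01 and -0.10. These lists were chosen with earlier results known, and whether they stand apart from other genes was not tested.

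A few genes set a single control apart. Counting genes whose other 2 controls lay within 0.3 of each other, control 1 stood at least 1 above them in 6 genes and at least 1 below in 3, control 2 in 1 and 0 genes, and control 3 in 12 and 16. All 6 genes high in control 1 had an irradiated array 1 that was apart in the same direction by at least 0.5 of that distance. Among them Cryab, a small heat shock protein, read 9.86, 8.90 and 8.67 in the controls and 9.71, 8.70 and 8.64 in the irradiated cultures, and Vnn1, an enzyme that releases cysteamine, read 7.39, 6.16 and 5.93. Of the 3 genes low in control 1, only 1 had an irradiated array 1 apart in this way. For control 3 this held for 1 of the 12 high genes and 2 of the 16 low ones. Adamts4, a matrix protease, read 6.14, 6.30 and 7.59 in the controls and 6.45, 7.13 and 6.60 in the irradiated cultures. Plcxd2 read 9.58, 9.32 and 7.59, and 9.12, 8.75 and 9.41, and its second probe set had the same low value in control 3 alone (8.83, 8.58 and 6.61). Ccnf, a cyclin, read 7.89, 7.71 and 6.29, and 7.71, 7.14 and 7.83. In these 3 genes irradiated culture 3 did not share the value of control culture 3.

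**Figure D5:**
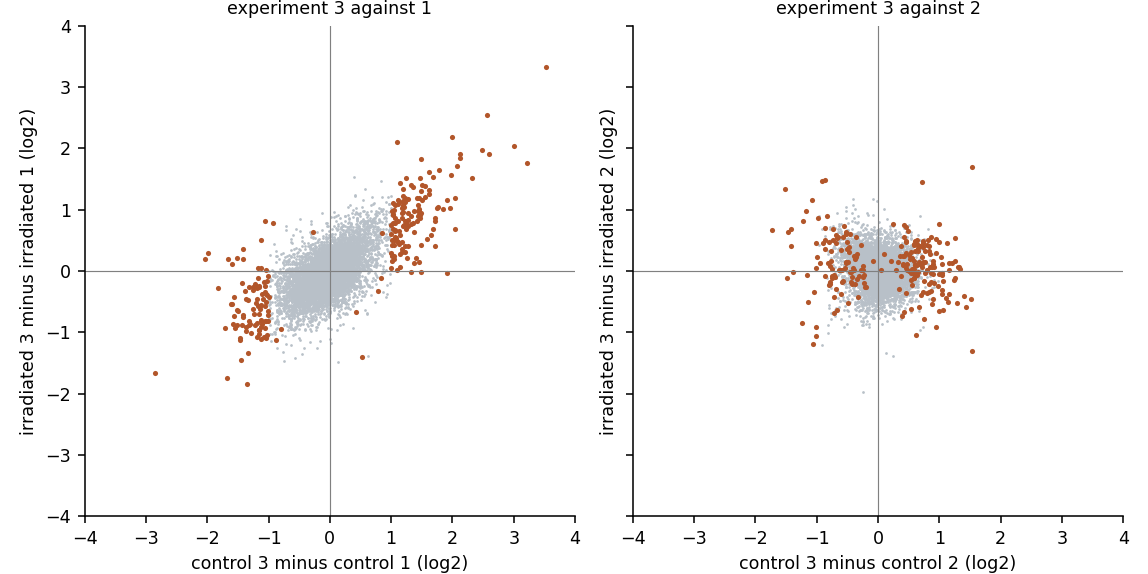
Difference between control cultures against the difference between the irradiated cultures of the same experiments, in log2, one point per expressed gene, with the 235 genes of range at least 1 in orange. Left, experiment 3 minus 1, where the points follow a diagonal. Right, experiment 3 minus 2, where they do not.

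Differences from experiment 1 were seen in the irradiated arrays too, whereas those between experiments 2 and 3 were not correlated in that way. Across the 9176 expressed genes, differences between controls 2 and 1 and between irradiated arrays 2 and 1 correlated at r = 0.716, and those of experiments 3 and 1 at r = 0.632. For experiments 3 and 2 r was -0.116. The control and irradiated differences share no array, but genes are not independent replicates and no p is given. Of the 235 wide genes 91.1% went the same way from experiment 1 to 3 in both kinds of array, against 70.2% of the expressed genes whose controls 3 and 1 differ. The signals of the 3′ and 5′ ends of control transcripts moved with the experiment too. The mean difference of the 3′ minus the 5′ probe sets for actin and Gapdh was 0.20, 0.27 and 0.38 in controls 1, 2 and 3, and 0.19, 0.25 and 0.38 in the irradiated cultures. Its part in these results was not tested.

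The experiments were compared in 1 limma fit of all 6 arrays, with irradiation as a term, so that the spread within an experiment came from its 2 cultures. The moderated F test over the 3 experiments called 2 of 45037 probe sets at an adjusted p under 0.05 (0.00444%), one of Ccl8 and one of Cxcl13, and 6810 at an unadjusted p under 0.05. Ccl8 was 3.42 higher in experiment 3 than in experiment 1 (95% interval 3.10 to 3.75), or 10.7-fold (limma F, adjusted p = 0.0129). Cxcl13 was 2.56 higher (2.26 to 2.85), or 5.90-fold (limma F, adjusted p = 0.0232). The second probe set of Cxcl13 read 6.13, 7.24 and 7.91 in the controls and 5.83, 7.01 and 7.95 in the irradiated cultures. Both calls were lost when any 1 of the 6 arrays was left out, with adjusted p of 0.291 to 0.880 for each gene, although the differences stayed between 3.28 and 3.57 for Ccl8 and between 2.49 and 2.62 for Cxcl13. Each such fit has 1 residual degree of freedom fewer than the 2 of the whole.

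Between experiments 3 and 1 alone, 152 probe sets were higher in experiment 3 (0.338%) and 252 lower (0.56%) by limma's adjusted p. These calls are weak and depend on the setting. Only 2 higher and 0 lower remain when p is adjusted over the 3 pairs of experiments together, a setting chosen after the data were seen. Among the 16111 probe sets with a mean of at least 6, 507 were higher and 1018 lower. With an intensity trend and robust prior 579 were higher and 1083 lower. Fits without 1 array have fewer residual degrees of freedom, so they cannot show which calls are weak. In the fit first described, 88 expressed genes were higher (0.959%) and 55 lower (0.599%). In the macrophage list 6 of 24 expressed members passed, all higher: C1qa (1.21, adjusted p = 0.0305), C1qb (1.26), C1qc (1.46), Mrc1 (1.38), Csf1r (0.97) and Spi1 (1.03), whose product PU.1 drives macrophage genes, with limma adjusted p up to 0.0426 over the 6. The chemokine list gave 6 of 20, all higher: Ccl3, Ccl4, Ccl6, Ccl8, Ccl9 and Cxcl2. Most of that list went the other way in the controls, with 7 members higher and 12 lower in control 3 than in control 1 and a median of -0.08. In the irradiated arrays 13 members were higher and 7 lower in experiment 3 than in experiment 1, with a median of 0.27. The growth factor list gave 2 higher, Pdgfc (0.96) and Tgfb1 (1.36), and 4 lower, Bdnf (-1.30), Gdnf (-1.20), Ereg (-0.99) and Fgf10 (-0.81).

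Single members of other lists passed too. The osteoclast pump gene Atp6v0d2 (1.38, limma adjusted p = 0.0293), the acute phase gene Saa3 (1.12), the lysosomal genes Lgmn (1.01) and Lipa (0.86) and the bone gene Ibsp (1.06) were higher in experiment 3. A dimmer Ibsp probe set differed by only 0.31 and did not pass (limma adjusted p = 0.363). Cryab (-1.13), Thbs1 (-1.18), Grem1 (-0.87), an inhibitor of BMPs, and Nt5e (-1.12) were lower. Among genes of small adjusted p outside the lists, Itgbl1, an integrin-like secreted protein, read 9.15, 8.15 and 7.48 in the controls and 9.30, 8.18 and 7.55 in the irradiated cultures, a difference of -1.71 (limma adjusted p = 0.0257). Of the 58 expressed fat cell genes none passed in either direction. Between experiments 2 and 1, and between 3 and 2, limma called 0 probe sets, with 5220 and 3233 at an unadjusted p under 0.05.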

How the data were processed

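Each of 6 cultures gave 200 ng of RNA for 1 Affymetrix mouse array, per the labels' protocols. The authors deposited log2 signals; RMA, affy and limma are named in the submitters' processing notes. Tool versions are not stated there, and which arrays RMA treated together is not given in the sources used here. RMA scales arrays toward a shared distribution and can compress differences at low signals. Signals near the ceiling of the array can be compressed too.

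The table held 45101 probe sets, of which 64 array controls were left out. Of the rest 34945 carried 1 gene symbol in the platform annotation, 932 several and 9160 none here, and 34741 were matched to GRCm38.p6. Probe sets of several genes were not named. A gene took its probe set of highest control mean.

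The control arrays alone were described without a test. The experiments went into a limma 3.58.1 fit under R 4.3.3 (lmFit, eBayes, two-sided, Benjamini-Hochberg over 45037 probe sets at 0.05) with experiment and irradiation as terms, 2 residual and 4.52 prior degrees of freedom. It was tested on simulated data. The number of arrays limits the precision. Scripts used Python 3.11.15 with pandas 2.3.3 and matplotlib 3.10.9. Promoters came from RefSeq, GRCm38.p6.

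The cultures, the 40 gene lists and the markers were chosen with earlier results of these data known. Of 766 distinct list genes 706 were measured. Named were the 25 brightest genes, 6 markers, up to 6 brightest and 3 widest members of each list, list members below 6, the 20 widest genes, up to 8 genes each way that set 1 control apart, and up to 10 genes of smallest p. Genes called in a list, and a few dim list members were named too, after their values were seen. Alternatives were other levels, scalings, probe set choices, priors and weights, and leaving out each array.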

Additional observations from a re-analysis of the deposited data

How the results depend on the processing

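The counts of expressed genes (7335 to 12191 around 9176) and of expressed stromal, macrophage and pooled fat cell genes stayed within 1.5 times under other levels (5, 7 or the 95th percentile of receptor probe sets), the median of a gene's probe sets, or 2 of the 3 controls. Adipogenic transcription factors fell from 17 to 11 at a level of 7, and brown and beige fat genes went from 1 to 4 at a level of 5 and 7 at the receptor percentile. With the median of probe sets, 16 of the 25 brightest genes stayed in the top 25. Genes with a range of at least 1 numbered 178 to 310 under the other scalings and filters, and 29 to 225 with 1 control left out.

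The F test called 15 probe sets without the irradiation term, 237 among probe sets with a mean of at least 6 (fewer tested), 716 with an intensity trend and robust prior, 15 with array weights and 11 with 1 probe set per gene (fewer tested). Without any 1 array it called 0 to 0, with 2029 to 7543 at an unadjusted p under 0.05. For experiment 3 above 1 the counts were 507 among brighter probe sets, 579 with the trend and robust prior, 101 with 1 probe set per gene and 2 with p adjusted over the 3 pairs together, an alternative chosen after seeing the data. For 3 below 1 they were 382 with median centring, 1018, 1083, 87 and 0. Both were 0 to 0 without any 1 array. Where no reason is given in brackets, the cause was not tested. The trend and robust prior also called 35 probe sets higher and 14 lower in experiment 2 than in 1, and array weights 3 and 1. No paired analysis was possible because the number that pairs control and irradiated arrays is the experiment, the factor tested, which cannot also be a block. Dim genes and those near the ceiling of the array limit what these signals can show.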

Other observations

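The following genes were chosen after their values were seen. Ppm1a, a protein phosphatase, read 9.0 in control culture 1 on its brightest probe set and 10.86 to 10.92 on the other 5 arrays, while its other 7 probe sets did not share the low value: one read 8.49, 8.25 and 8.12 in the controls, another 8.32, 8.33 and 7.92. One probe set of the long noncoding RNA Malat1 read 10.22, 9.22 and 10.75 in the controls and 10.62, 10.53 and 9.22 in the irradiated cultures, and another read 9.96, 9.89 and 9.95 in the controls. The brightest Fabp4 probe sets read 14.22, 14.39 and 14.34, and 13.03, 13.18 and 13.12, while 2 dimmer ones read 7.63, 8.58 and 8.19, and 7.30, 8.43 and 7.44.

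Sex-linked genes gave these values. Xist, the RNA of the inactive X chromosome, read 9.85, 9.95 and 10.19 in the controls, and 7.68, 7.79 and 7.70 on another probe set. Its dimmest probe set was less even, at 6.84, 7.26 and 6.19 in the controls and 7.38, 7.60 and 6.72 in the irradiated cultures. Eif2s3y, a Y-linked gene with a close X-linked copy, read 7.79, 7.74 and 7.66, while the Y-linked Kdm5d and Uty were below the level of 6, at 4.49 and 5.04. In each of the 3 control cultures Xist was above the level of 6 on all its probe sets, and Kdm5d and Uty were below it.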
